A study of Mus musculus with 8 samples.

Results

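REDD1, the sestrins and the core parts of the mTOR complexes were followed as a set of 10 mouse genes: Ddit4, Sesn1, Sesn2, Sesn3, Tsc1, Tsc2, Mtor, Rptor, Rictor and Deptor. The rule that finds them is a match of gene symbols and uses no measured level. The set itself was chosen with earlier results of these data known. All 10 genes had at least 1 probe on the array, 15 probes together of the 56605 that were not controls. Of these genes 9 were tested, among 21528 genes in all, and every one of the 9 was measured by a probe well above background on all 8 arrays. Sesn3 was the exception: its only probe was not well above background on any array, and it was not tested.

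The cells were J774.1, a macrophage-like line from the BALB/c mouse strain, and total RNA was labelled with Cy3 and hybridised in 1 colour. The groups were Torin1 at 1 µM for 6 h, isorhamnetin at 10 µM for 6 h, tamarixetin at 10 µM for 6 h, and control cells, with 2 arrays each. Replicates are biological according to the study's design text, whereas the handling of the control cells and any vehicle are not given in the sources used here. Torin1 is an ATP-competitive inhibitor of the mTOR kinase, and isorhamnetin and tamarixetin are isomeric flavonols, quercetin with the same methyl group on neighbouring hydroxyls of 1 ring.

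As background, mTOR is a protein kinase that works in a pair of complexes. The one built on raptor (mTORC1) promotes protein synthesis and growth when amino acids and growth factors are present, and the one built on rictor (mTORC2) acts on AKT. The complex of TSC1 and TSC2 switches off Rheb, the small GTPase that activates mTORC1. REDD1, encoded by Ddit4, holds mTORC1 down through TSC1 and TSC2, sestrins do so through the GATOR complexes of the amino acid pathway, and DEPTOR binds mTOR itself and inhibits it.

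Values are log2 signals minus the 75th percentile of the same array, so 0 is the level below which 75% of the probes of that array lie, and each is the level of 1 probe. Levels of different genes are not compared, because each comes from its own probe. The signal at the 75th percentile lay between 318 and 403 on the 8 arrays, no spot was saturated, and the 2 arrays of a group correlated at 0.992 to 0.997. All arrays lay on 1 slide: control and isorhamnetin arrays shared a row of it, and Torin1 and tamarixetin arrays the other. Torin1 and control therefore lay in different rows, and row and group cannot be told apart in that comparison, while Torin1 against tamarixetin and isorhamnetin against control are comparisons within a row. Signals are from whole cultures, where fewer cells of a kind and less RNA per cell cannot be told apart. Of 10 macrophage markers 9 were well above background on all 8 arrays, and Mertk was so on none.

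Torin1 was followed by a large loss of the Ddit4 transcript, by falls of Sesn1 and Sesn2 to 0.414 and 0.417 of the control signal, and by rises of Tsc1 and Rptor. Mtor, Tsc2, Deptor and Rictor did not pass the test. In all, 5 of the 9 tested members were called at an adjusted p < 0.05 by limma with Benjamini-Hochberg adjustment over all genes, 2 higher and 3 lower with Torin1 than in control. This share is close to the background: 49.4% of all genes tested were called in the same comparison, 19.3% higher and 30.1% lower, so the count itself says nothing particular about these genes. The median log2 fold change was 0.02 over the members, which went both ways from -5.41 to 0.71, and -0.10 over all genes. The scaling sets the median of all genes, which was -0.27 when each array was centred on its own median. The share of lower genes among those called was then 77.2%, against 61.0%. The array median was taken over all probes before the filter on dim probes. Of the spots of an array, 43.9% to 54.1% were well above background, so this median lay near the limit of detection. Median centring thus moves every log2 fold change of a comparison by the same amount.

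**Figure D1:**
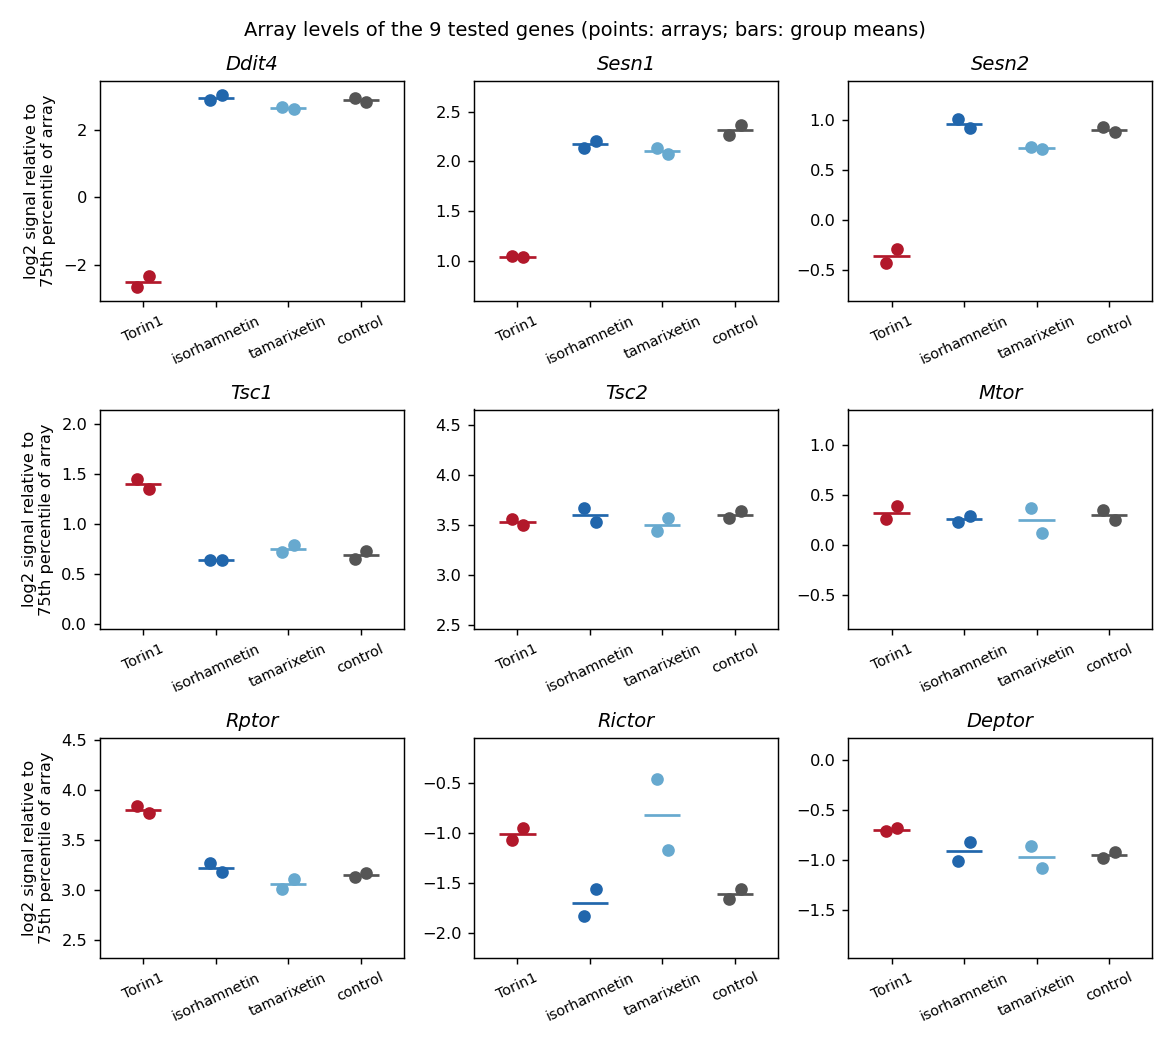
Level of the 9 tested genes on each of the 8 arrays, in log2 units above or below that array's 75th percentile (vertical axis, scaled separately for each gene), with arrays as points and group means as bars. The Torin1 arrays of Ddit4 lie at -2.66 and -2.36, and the other 6 arrays between 2.62 and 3.04.

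Ddit4 encodes REDD1, a short-lived stress protein induced by low oxygen, glucocorticoids, DNA damage and amino acid shortage. Its log2 level was -2.66 and -2.36 on the Torin1 arrays, 2.92 and 3.04 on isorhamnetin arrays, 2.69 and 2.62 on tamarixetin arrays, and 2.97 and 2.84 on control arrays. The Torin1 arrays stood far below the other 6, which lay within 2.62 and 3.04 and thus within less than 0.5 log2 of each other. Means were -2.51 ± 0.21 with Torin1 and 2.90 ± 0.09 in control (SD, n = 2 each), a log2 fold change of -5.41 ± 0.11 (SE, adjusted p = 1.64e-05, limma). This is 42.5-fold lower signal with Torin1, and the 95% interval runs from -5.70 to -5.13. With another background correction, normexp, the log2 fold change was -4.22, outside that interval. The dimmest signals well above background on the Torin1 arrays were at -3.29 and -3.66, so the size of the fall depends on how background is handled. Of the 21528 genes tested, none had a lower fitted log2 fold change with Torin1. Next in that order came Olig2, at -4.59 with an SE of 0.83, Gm12273, at -4.18 with an SE of 1.36, and Trib3, at -3.81 with an SE of 0.11. Olig2 and Gm12273 were well above background on both control arrays and on neither Torin1 array, whereas Ddit4 and Trib3 were so on all of them; these neighbours in the order were chosen after their values were seen. Without control replicate 2, Ddit4 was second lowest, at -5.47. Against tamarixetin, in the same slide row, Ddit4 was at -5.16 ± 0.11 with Torin1 (SE, adjusted p = 1.90e-05, limma), with rank 3 from the lowest among the 21528 genes.

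Sestrins are stress-induced proteins that hold back mTORC1, and sestrin 2 also binds leucine. Sesn1, best known as a p53 and FOXO target, had log2 levels of 1.05 and 1.04 with Torin1, 2.14 and 2.20 on isorhamnetin arrays, 2.13 and 2.08 on tamarixetin arrays, and 2.27 and 2.37 on control arrays. Sesn2, an ATF4 and NRF2 target in other cell types, had -0.43 and -0.29 with Torin1, 1.01 and 0.92 on isorhamnetin arrays, 0.72 and 0.71 on tamarixetin arrays, and 0.92 and 0.88 on control arrays. For both genes the 2 Torin1 arrays lay more than 1 log2 below the lowest of the other 6, and the replicate arrays of each group differed by far less. The fall was nearly the same for both: -1.27 ± 0.06 for Sesn1 (SE, adjusted p = 0.000115, limma) and -1.26 ± 0.07 for Sesn2 (SE, adjusted p = 0.00017, limma). Against tamarixetin the log2 fold changes with Torin1 were -1.06 and -1.08, both called. From the lowest log2 fold change upwards, Sesn1 ranked 306th and Sesn2 313th of the 21528 genes against control. The third sestrin, Sesn3, had log2 levels of -5.63 and -5.97 with Torin1, between -6.93 and -6.47 on isorhamnetin arrays, -5.39 and -5.40 on tamarixetin arrays, and -6.28 and -6.22 on control arrays. Since none of these was well above background, they carry no order between groups.

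**Figure D2:**
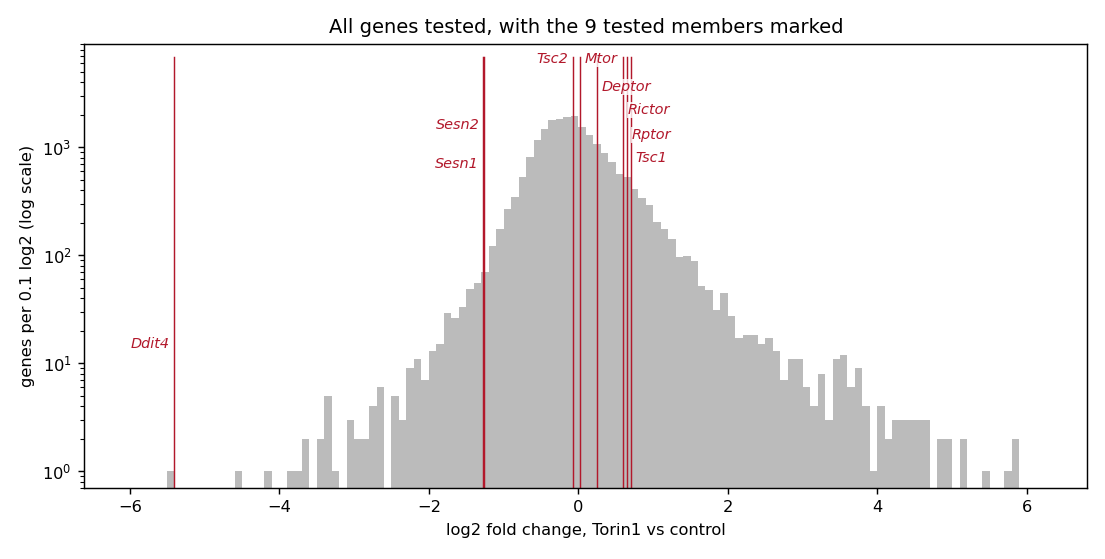
Log2 fold change of all 21528 genes tested, Torin1 vs control (horizontal axis, bins of 0.1 log2), with the number of genes per bin on a log axis and the 9 tested members as red lines. Ddit4 at -5.41 lies at the low end, Sesn1 and Sesn2 lie together near -1.27 and -1.26, and the other 6 members lie between -0.07 and 0.71.

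Since Ddit4, Sesn1 and Sesn2 fell together, the 250 bases before each annotated start were read from the RefSeq promoter windows of GRCm38.p6. Windows were given for 9 of the 10 members, not for Deptor, and Sesn1 had 2 starts. The 3 genes that fell are given on the strand of the gene, in lower case, with any match to a searched motif in capitals.
Ddit4, chr10:59951771-59952020, minus strand: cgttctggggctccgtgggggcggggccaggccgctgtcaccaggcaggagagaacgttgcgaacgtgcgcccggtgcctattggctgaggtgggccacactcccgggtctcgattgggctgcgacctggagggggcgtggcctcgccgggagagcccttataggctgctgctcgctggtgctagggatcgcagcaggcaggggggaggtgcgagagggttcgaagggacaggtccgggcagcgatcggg
Sesn1 first start, chr10:41810324-41810573, plus strand: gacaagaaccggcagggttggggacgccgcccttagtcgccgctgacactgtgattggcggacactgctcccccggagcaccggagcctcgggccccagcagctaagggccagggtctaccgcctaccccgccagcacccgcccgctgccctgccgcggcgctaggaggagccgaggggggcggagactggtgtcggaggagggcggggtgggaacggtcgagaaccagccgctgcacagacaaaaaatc
Sesn1 other start, chr10:41887189-41887438, plus strand: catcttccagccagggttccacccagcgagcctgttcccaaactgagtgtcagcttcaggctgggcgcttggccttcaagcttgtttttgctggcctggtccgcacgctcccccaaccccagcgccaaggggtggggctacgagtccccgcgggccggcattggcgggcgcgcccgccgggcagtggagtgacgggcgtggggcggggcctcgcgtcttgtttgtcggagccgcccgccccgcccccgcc
Sesn2, chr4:132510457-132510706, minus strand: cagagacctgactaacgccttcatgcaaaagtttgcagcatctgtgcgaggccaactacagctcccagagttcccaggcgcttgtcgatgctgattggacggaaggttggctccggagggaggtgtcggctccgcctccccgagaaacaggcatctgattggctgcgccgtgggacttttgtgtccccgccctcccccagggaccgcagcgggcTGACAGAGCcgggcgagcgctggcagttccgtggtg
All 4 windows are rich in G and C, at 70.0% for Ddit4, 70.0% and 71.2% for Sesn1 and 63.2% for Sesn2. Both strands were searched for the letters CACGTG (E-box), GTAAACA (FOXO core), TGATGNAA (ATF4 composite element) and TGACNNNGC (antioxidant response element, the NRF2 site). The 1 match in all 10 member windows was the antioxidant response element TGACAGAGC of Sesn2, 36 to 28 bases before its start. Of 32851 mouse promoter windows of this length, 10.2% hold that element, 6.02% the E-box, 3.17% the FOXO core and 3.45% the ATF4 element. A match is a description of letters, and its absence from these windows says nothing about the factor or about sites elsewhere.

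TSC1 stabilises TSC2, which carries the GTPase-activating domain of the complex. Tsc1 had log2 levels of 1.45 and 1.35 with Torin1, 0.64 and 0.64 on isorhamnetin arrays, 0.72 and 0.78 on tamarixetin arrays, and 0.64 and 0.73 on control arrays. The Torin1 arrays stood above the other 6, which lay between 0.64 and 0.78. Tsc1 rose by a log2 fold change of 0.71 ± 0.06 with Torin1 against control (SE, adjusted p = 0.000698, limma), or 1.63-fold, and was 0.65 higher with Torin1 than with tamarixetin. A further Tsc1 probe was not well above background on any array. Tsc2 had log2 levels of 3.56 and 3.51 with Torin1, 3.67 and 3.53 on isorhamnetin arrays, 3.45 and 3.57 on tamarixetin arrays, and 3.57 and 3.65 on control arrays. The Torin1 arrays fell inside the span of the other 6, and the log2 fold change was -0.07 ± 0.08 against control (SE, adjusted p = 0.466, limma). Its sign turned to 0.05 under quantile normalization, and with median centring it was -0.25 and passed the test (adjusted p = 0.0475, limma). A dimmer Tsc2 probe, on another transcript record, had group means of -0.84 ± 0.36 with Torin1 and -0.44 ± 0.19 in control (SD, n = 2 each).

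Mtor encodes the kinase that Torin1 inhibits. Its log2 level was 0.26 and 0.39 with Torin1, 0.23 and 0.29 on isorhamnetin arrays, 0.37 and 0.13 on tamarixetin arrays, and 0.35 and 0.25 on control arrays. All 4 groups overlapped, and the spread of the group means, 0.08 log2, placed Mtor 21088th of 21528 genes when genes are ordered from the widest spread down. Torin1 against control gave 0.02 ± 0.10 (SE, 95% interval -0.23 to 0.27, adjusted p = 0.885, limma), and median centring turned this to -0.15, also short of the threshold.

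Rptor encodes raptor, the scaffold that brings substrates to mTORC1. It had log2 levels of 3.83 and 3.76 with Torin1, 3.26 and 3.18 on isorhamnetin arrays, 3.0 and 3.10 on tamarixetin arrays, and 3.13 and 3.16 on control arrays. No array of another group reached the Torin1 arrays, and the log2 fold change was 0.65 ± 0.07 against control (SE, adjusted p = 0.000946, limma), or 1.57-fold. Against tamarixetin it was 0.74. Tsc1 and Rptor were called higher under each scaling tried, with Rptor between 0.48 and 0.79 and Tsc1 between 0.54 and 0.78 against control.

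Rictor encodes the mTORC2 counterpart of raptor. Its brightest probe had log2 levels of -1.06 and -0.95 with Torin1, -1.83 and -1.56 on isorhamnetin arrays, -0.46 and -1.16 on tamarixetin arrays, and -1.65 and -1.55 on control arrays. The Torin1 arrays did not overlap the control arrays, but the 2 tamarixetin arrays differed from each other by more than Torin1 did from control. Torin1 against control gave 0.60 ± 0.23 (SE, adjusted p = 0.0828, limma), and the SE pools all 4 groups. Without either tamarixetin array it was 0.60 ± 0.11 and passed the test (SE, adjusted p = 0.0124, limma). Tamarixetin against control gave 0.79 ± 0.23 (SE, adjusted p = 0.258, limma), the largest size among the members with that compound. This probe lies in spot row 12 of 384. Of the 3584 kept probes in rows 1 to 48, 8.57% were more than 0.5 log2 higher with tamarixetin than in control. Of the 23978 in other rows, 2.31% were. These shares were 17.35% and 14.07% with Torin1 against control, and 3.3% and 3.8% with isorhamnetin. The part of this in the Rictor values was not tested. A further Rictor probe was well above background on both Torin1 arrays and on none of the other 6. Its group means were -3.13 ± 0.03 with Torin1 and -5.28 ± 0.90 in control (SD, n = 2 each). This probe was kept only through the Torin1 arrays, so its means support no call or fold. The last Rictor probe was not well above background on any array.

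Deptor encodes an inhibitor found in both mTOR complexes. Its brighter probe had log2 levels of -0.72 and -0.68 with Torin1, -1.02 and -0.82 on isorhamnetin arrays, -0.86 and -1.08 on tamarixetin arrays, and -0.98 and -0.93 on control arrays. The Torin1 arrays were the highest, without overlap, yet the log2 fold change of 0.25 ± 0.10 against control missed the threshold (SE, adjusted p = 0.0834, limma). The dimmer Deptor probe pointed the other way, at -1.96 ± 0.23 with Torin1 and -1.80 ± 0.19 in control (SD, n = 2 each), within the spread of the arrays.

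Set in order, the group means of the members fell into few shapes. Torin1 was lowest for Ddit4, Sesn1 and Sesn2, and highest for Tsc1, Rptor, Deptor and Mtor. Mtor arrays overlapped between all neighbouring groups, and the dimmer Deptor probe was lower with Torin1 than in control. For Ddit4 and Sesn2 the order from the top was isorhamnetin, control, tamarixetin and Torin1, with overlap between isorhamnetin and control and none between the other neighbours. For Sesn1 it was control, isorhamnetin, tamarixetin and Torin1, with no overlap between neighbours. Where arrays of 2 groups do not overlap, the difference is not thereby shown, since 2 arrays against 2 cannot give a two-sided exact permutation p below 0.333.

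**Figure D3:**
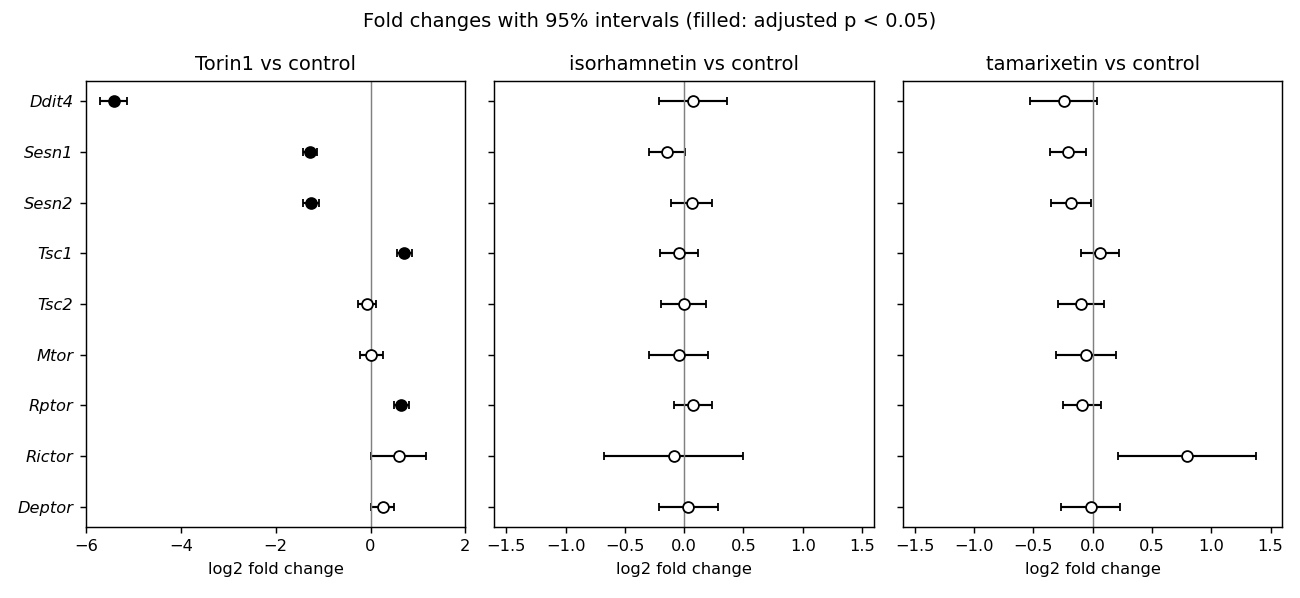
Log2 fold change (horizontal axis) of each tested member with its 95% interval, for Torin1, isorhamnetin and tamarixetin, each against the same 2 control arrays; the Torin1 panel has a wider axis, and filled points have adjusted p < 0.05. The 5 filled points, for Ddit4, Sesn1, Sesn2, Tsc1 and Rptor, are all in the Torin1 panel.

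Neither flavonol moved a member past the threshold. With isorhamnetin 0 of 9 members were called against control by limma, and 0.543% of all genes were (117 genes, and 3307 at an unadjusted p < 0.05). Fold changes of the members ran from -0.15 for Sesn1 (adjusted p = 0.339) to 0.08 for Rptor (adjusted p = 0.625), on the log2 scale by limma. Ddit4 was at 0.07, with a 95% interval of -0.21 to 0.36, and Sesn2 at 0.06, with -0.11 to 0.23. These intervals exclude a fall of the size seen with Torin1.

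With tamarixetin 0 of 9 were called against control by limma, and 0.079% of all genes were (17 genes, and 3072 at an unadjusted p < 0.05). Besides Rictor, the largest were Ddit4, at -0.25 (95% interval -0.53 to 0.04, adjusted p = 0.402), Sesn1, at -0.21 (-0.36 to -0.06, adjusted p = 0.25), and Sesn2, at -0.18 (-0.35 to -0.01, adjusted p = 0.327), all by limma. Rptor, at -0.09, and Tsc2, at -0.10, were also lower and not called. The tamarixetin arrays lay in another row of the slide than the control arrays. The 3 compounds share the control arrays, so these fold changes are not independent of one another.

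Isorhamnetin and tamarixetin were set against each other at the same dose and time, 1 pair of isomers. By limma 0 of 9 members were called, as were 0.827% of all genes (178 genes, and 2861 at an unadjusted p < 0.05). Ddit4 was 0.32 higher with isorhamnetin on the log2 scale (95% interval 0.04 to 0.61, adjusted p = 0.327, limma). Sesn2 was 0.24 higher (0.07 to 0.42, adjusted p = 0.228) and Rptor 0.17 higher (0.00 to 0.33, adjusted p = 0.365), while Rictor was at -0.88 (-1.46 to -0.30, adjusted p = 0.214), all by limma. Without tamarixetin replicate 2 the Rictor value was -1.23 and passed the test (adjusted p = 0.0409, limma). For the 5 other members, Sesn1, Tsc1, Tsc2, Mtor and Deptor, the difference lay between -0.11 and 0.09, with intervals reaching -0.27 and 0.30 at most. Intervals of this width do not show that the isomers act alike, and the isomers lay in different rows of the slide.

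Torin1 against tamarixetin gave the same split as against control: Tsc1 and Rptor higher, Ddit4, Sesn1 and Sesn2 lower, and the other 4 not called. Of all genes 43.2% were called in this comparison, 19.1% higher and 24.1% lower. It shares the Torin1 arrays with the comparison against control, its doses differ, and both of its groups lie in 1 slide row.

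The other genes of the pathway were counted in 4 lists. Beside their counts for Torin1 against control stand the 49.4% of all genes called, 19.3% higher and 30.1% lower, and no count is read as particular to a list. Among other parts of the complexes and their regulators, 10 of 13 genes were tested and 2 were called with Torin1 against control. Rhebl1, a relative of the mTORC1 activator Rheb, rose by 1.09 ± 0.07 on the log2 scale (SE, adjusted p = 0.000225, limma), with levels of 2.02 and 2.00 on Torin1 arrays and 0.91 and 0.94 on control arrays. Prr5, an mTORC2 subunit, fell to -0.64 ± 0.08 with Torin1, against -0.09 ± 0.04 in control (SD, n = 2 each; adjusted p = 0.00336, limma). Mlst8, shared by both complexes, and Akt1s1, which encodes the mTORC1 inhibitor PRAS40, were at -0.11 and 0.07, neither called. The list's median was -0.08, beside -0.10 over all genes.

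All 19 genes of amino acid sensing that are reported here were tested, and 8 were called, 1 higher and 7 lower, with a median of -0.06. Castor2, related to the arginine sensor, had 1.55 and 1.45 on Torin1 arrays and 2.76 and 2.85 on control arrays, a log2 fold change of -1.31 ± 0.08 (SE, adjusted p = 0.000265, limma). Bmt2, which encodes the S-adenosylmethionine sensor SAMTOR, was at -0.80, Seh1l and Sec13, of the GATOR2 complex that sestrins bind, at -0.69 and -0.48, and Depdc5, of GATOR1, at -0.33, all called. A further Seh1l probe, well above background on all 8 arrays and not used in the test, was at -0.26. The other tested GATOR2 genes were not called, Mios at 0.0031, Wdr24 at -0.06 and Wdr59 at -0.06. Nprl3, also of GATOR1, was called higher at 0.22, and that call was lost with median centring, at 0.04. The split of the list was then 0 higher and 8 lower, and 3 higher and 5 lower under quantile normalization.

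Among kinases upstream and substrates downstream, 24 of 27 genes were tested, 4 were called higher and 9 lower, and the median was -0.13. The largest by size were Lpin1, a lipid phosphatase phosphorylated by mTORC1, at -0.99, Pik3cd at -0.64, Pik3cb at 0.64, Rps6kb2 at -0.61 and Ulk1, the autophagy kinase, at 0.52. Of the PI3-kinase catalytic subunits tested, Pik3cb was thus called higher and Pik3cd lower, while Pik3ca, at 0.39, was not called (adjusted p = 0.102, limma). Pik3ca was called higher with normexp, at 0.43 (adjusted p = 0.0398, limma), but not with median centring or quantile normalization, at 0.22 and 0.50. The Ulk1 call was lost with median centring, at 0.35, and the split of the list was then 1 higher and 11 lower, with a median of -0.30. Under quantile normalization it was 5 higher and 8 lower.

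Of 10 transcription factors known to act on Ddit4 or sestrin genes, all were tested, 2 were called higher and 3 lower, and the median was -0.18. Atf4, the amino acid stress factor, had 7.05 and 6.98 on Torin1 arrays and 8.31 and 8.36 on control arrays, a log2 fold change of -1.32 ± 0.06 (SE, adjusted p = 0.000126, limma). Ddit3, which encodes the stress factor CHOP, had -1.36 and -1.40 on Torin1 arrays and 0.13 and 0.06 on control arrays, a log2 fold change of -1.47 ± 0.09 (SE, adjusted p = 0.000241, limma). For both genes the groups did not overlap. Cebpb was called higher at 1.23, Nfe2l2, which encodes NRF2, higher at 0.41 and Tfeb lower at -0.40, and the Nfe2l2 call was lost with median centring, at 0.24. The Tfeb call was lost with normexp, at -0.26 (adjusted p = 0.062, limma), and against tamarixetin Tfeb was at -0.13 and not called. Dimmer Tfeb probes, not used in the test, were at -0.67, -0.55 and -0.07 with Torin1 against control. Trp53, Foxo1, Foxo3, Hif1a and Tfe3 were not called, with values between -0.25 and 0.20. With median centring Trp53, Hif1a and Tfe3 were called lower, at -0.35, -0.42 and -0.35, and the split of the list was 1 higher and 6 lower. With isorhamnetin or tamarixetin against control, and between them, 0 genes of any of the 4 lists were called by limma.

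**Figure D4:**
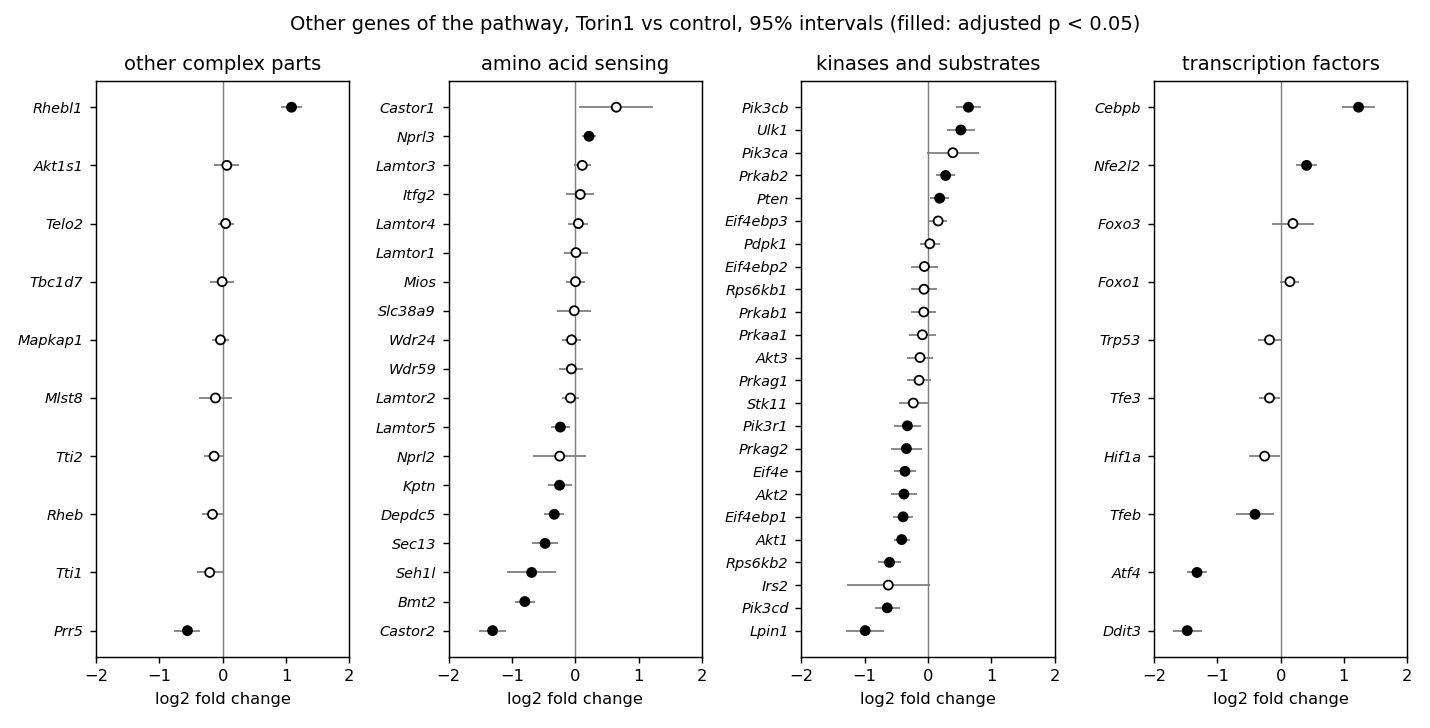
Log2 fold change with its 95% interval (horizontal axis) for the tested genes of the 4 lists, Torin1 vs control, ordered by size within a list; filled points have adjusted p < 0.05. The points spread to both sides of 0 in every list, from Ddit3 at -1.47 to Cebpb at 1.23.

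The genes whose pattern over the 8 arrays was nearest to Ddit4 and to Sesn2, the members with the widest spread of group means, were found by the root mean square difference after each gene was centred on its own mean. For Ddit4 they included Trib3 (0.65 log2), Hspa1b (0.75), Chac1 (0.84) and Sucnr1 (0.91). Trib3, a pseudokinase, was at -3.81 with Torin1 against control, and Chac1, which degrades glutathione, at -3.34. Hspa1b and Sucnr1 were not well above background with Torin1, and were at least 8.42-fold and at least 2.83-fold lower than in control. Such bounds set each Torin1 array no lower than its dimmest signal well above background. For Sesn2 the nearest genes were Cars (0.05), a cysteinyl-tRNA synthetase gene, Rnd1 (0.06), Grk5 (0.06), 4930579G24Rik (0.08) and Mipol1 (0.08). Mipol1 was not well above background on either Torin1 array and was at least 1.79-fold lower than in control. Cars had 4.10 and 4.17 on Torin1 arrays, 5.53 and 5.45 on isorhamnetin arrays, 5.19 and 5.21 on tamarixetin arrays, and 5.28 and 5.39 on control arrays, the same order of groups as Sesn2. These genes were picked for likeness on the same arrays, and their likeness is a description.

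**Figure D5:**
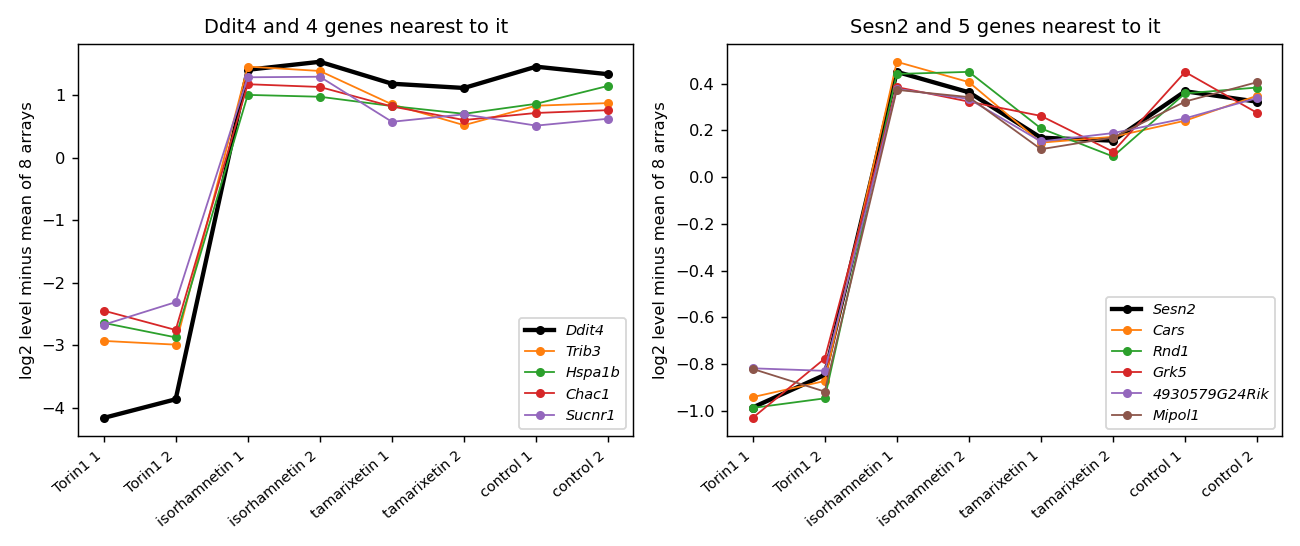
Level of Ddit4 (left) and Sesn2 (right) with 4 genes near to Ddit4 and the 5 nearest to Sesn2 on the 8 arrays (horizontal axis), as log2 level minus the gene's mean over the 8 arrays (vertical axis, different scales). All 11 genes drop on both Torin1 arrays, and Ddit4 drops furthest.

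Markers of other cell types were read beside these results. Of 4 T cell markers, Cd3e and Cd4 were well above background on all 8 arrays and Cd8a on none, and their summed signal, in units of the 75th percentile, was 3.16 to 3.53 with Torin1, 3.89 to 4.61 with isorhamnetin, 3.78 to 4.58 with tamarixetin and 5.21 to 5.66 in control. Cd4 was called lower with Torin1 against control, at -0.79. For B cell, epithelial and fibroblast markers, 0 of 4 each were well above background on all 8 arrays, and the summed signals were 0.0895 to 1.13 over all arrays. The value of 1.13 was the B cell sum of tamarixetin replicate 2, where the Pax5 probe was at -0.02, against -5.29 on tamarixetin replicate 1. In the other groups the B cell sum reached 0.25 at most. Summed fibroblast markers ran from 0.234 to 0.277 with Torin1, 0.178 to 0.224 with isorhamnetin, 0.212 to 0.278 with tamarixetin and 0.141 to 0.186 in control, with Col1a1, Col1a2 and Pdgfra not well above background on any array. Dcn was so on both Torin1 arrays and on 1 of 2 control arrays, with means of -2.66 ± 0.13 with Torin1 and -3.91 ± 0.44 in control (SD, n = 2 each). It was called higher (adjusted p = 0.0116, limma), a call lost with normexp, at 0.20. Summed macrophage markers ran from 738 to 749 with Torin1, 649 to 713 with isorhamnetin, 676 to 683 with tamarixetin and 720 to 733 in control, with 4 called higher and 2 lower with Torin1 against control. The largest of these changes were Fcgr1, at -2.23, and Adgre1, at 1.43. The higher calls of Cd68, Cd14 and Ptprc were lost with median centring, at 0.18, 0.14 and 0.08. They were kept under quantile normalization and normexp. With median centring Csf1r was called lower, at -0.41, and Fcgr1 and Adgre1 kept their calls. A sum of signals is weighted towards the brightest markers. All arrays were labelled as the same cell line, so these signals are not read as counts of T cells or fibroblasts. The part of the T cell, fibroblast and macrophage markers in the members' changes was not tested.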

How the data were processed

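The files held a scanner output for each array and the authors' value table. Per the file headers, signals came from Agilent Feature Extraction 10.7.1.1 as an intensity, with background subtracted and a spatial trend removed within each array. The value table deposited by the authors is in log2 units: log2 intensity minus the 75th percentile of each array over probes, centred per probe on its median across arrays, gave its values within 0.01 for 100% of 56282 probes. Its columns had medians from -0.110 to 0.173, and all columns were matched to a sample.

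From the scanner signal, control spots and outlier spots were dropped (323 probes left out), replicate spots were averaged, and log2 values were scaled to the 75th percentile. A probe was kept when well above background on both arrays of 1 group or more, which left 27562 probes. The probe with the highest mean stood for its gene, giving 21528 genes, 12934 with a symbol and 8594 without. Names came from RefSeq for GRCm38.p6 and promoter sequences from the same build. The header names mm9, so no array coordinates are printed. The test was limma (version 3.58.1, under R 4.3.3, with the data.table package, version 1.17.8), with all 8 arrays in 1 fit with 4 residual degrees of freedom, two-sided, with Benjamini-Hochberg adjustment over all genes, and called at adjusted p < 0.05. The fit was tested on simulated data. SE and 95% intervals are those of the fit, SD that of 2 arrays, and the number of arrays limits the precision.

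Members and lists were chosen with earlier results of these data known. Named were all members and genes among the 5 nearest to each of 2 members. From each list, up to 5 called genes by size were named that were well above background on all arrays compared. Further list genes were chosen after their values were seen: Mlst8, Akt1s1, Nprl3, Mios, Wdr24, Wdr59, Pik3ca and the factors not called. 1 gene of the amino acid list and 1 of those nearest to Ddit4 are not reported here. Alternatives were median centring, quantile normalization, normexp with an offset of 50 on the median pixel signal and median local background, no filter or a filter on all 8 arrays, the mean of a gene's probes, only the 2 groups compared, the replicate number as a block, the authors' values, and leaving out each array.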

Additional observations from a re-analysis of the deposited data

How the results depend on the processing

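Ddit4, Sesn1, Sesn2, Tsc1 and Rptor kept their direction and their call with Torin1 under all 17 alternatives, against control and against tamarixetin. Ddit4 ranged from -5.58 to -4.22 against control, with -4.22 from normexp. Mtor was not called under any of them, and the calls of Rictor, Deptor and Tsc2 changed in some. Against control, Rictor and Deptor passed with only the 2 groups compared (0.60 and 0.25). Against tamarixetin, Deptor passed with the filter on all 8 arrays (0.27) and without tamarixetin replicate 1 (0.38), and Rictor without tamarixetin replicate 2 (-0.55).

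Signs of small values turned, and the cause was not tested. With median centring, Mtor was at -0.15 for Torin1 against control and -0.0414 against tamarixetin, Tsc2 at -0.0916 for Torin1 against tamarixetin, and Deptor at -0.0182 for isorhamnetin against control. With quantile normalization, Tsc2 was at 0.0514 for Torin1 and 0.00167 for isorhamnetin against control, and Mtor at -0.0214 between the isomers. With normexp, Deptor was at -0.0858 for isorhamnetin and 0.0199 for tamarixetin against control and -0.11 between the isomers, Tsc2 at 0.0385 for isorhamnetin against control and -0.0114 for Torin1 against tamarixetin, Mtor at -0.0158 between the isomers, and Rictor at 0.011 for Torin1 against tamarixetin. With a gene's probes averaged, Deptor was at -0.13 for isorhamnetin against control and -0.0671 between the isomers, Rictor at 0.32 for isorhamnetin against control and 0.47 for Torin1 against tamarixetin, and Tsc2 at -0.11 for Torin1 against tamarixetin. The averaged Rictor values, and 1.38 for Torin1 against control, take in the probe that was kept only through the Torin1 arrays, so they support no call or sign.

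Leaving out 1 array gave, for Torin1 against control, -0.0458 to 0.0858 for Mtor. For isorhamnetin against control it gave -0.061 to 0.133 for Deptor, -0.0972 to 0.00313 for Mtor, -0.228 to 0.0482 for Rictor and -0.0762 to 0.0646 for Tsc2, and for tamarixetin against control -0.128 to 0.0914 for Deptor and -0.18 to 0.0655 for Mtor. Between the isomers it gave -0.0556 to 0.164 for Deptor and -0.113 to 0.133 for Mtor, and for Torin1 against tamarixetin -0.0455 to 0.2 for Mtor, -0.548 to 0.157 for Rictor and -0.0347 to 0.0884 for Tsc2. Members called numbered 5 to 6 in both Torin1 comparisons, 0 with either flavonol against control and 0 to 1 between the isomers.

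Counts over all genes moved most for the flavonols. For isorhamnetin against control they were 13 with median centring, 6 with no filter, 376 with the filter on all 8 arrays and 0 with only the 2 groups compared (3123 at an unadjusted p < 0.05), and 5 to 75 with 1 array left out, whichever it was. For tamarixetin against control they were 9 with normexp, 12526 with no filter and 0 with the filter on all 8 arrays (2635 at an unadjusted p < 0.05). They were also 0 without either control array, 10 without either isorhamnetin array, and 146 and 142 without tamarixetin replicate 1 and replicate 2, against 20 without either Torin1 array. Between the isomers they were 113 with median centring, 95 with normexp, 14021 with no filter and 1 with only the 2 groups compared. They were 39 to 68 without any 1 of the isorhamnetin, control and Torin1 arrays, and 239 and 272 without tamarixetin replicate 1 and replicate 2. For Torin1 they were 7479 to 10875 against control and 6585 to 8736 against tamarixetin with 1 array left out, and 5587 against tamarixetin with no filter. With no filter, 45380 genes entered the test, Sesn3 among them although at background, and 1 member was called for tamarixetin against control (Sesn3) and 2 between the isomers (Sesn3 and Rictor).

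Replicate numbers did not pair the samples: correlations of replicate differences between groups were -0.131 to 0.0831. With the replicate number as a block, genes called were 4 for isorhamnetin against control, 11 for tamarixetin against control, 43 between the isomers and 9711 for Torin1 against control, and the members' calls did not change. Signal over background limits Sesn3 and the dim probes of Rictor and Tsc1.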
